A study of Mus musculus with 45 samples.

Results

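Matrix metalloproteinases (MMPs) and their tissue inhibitors (TIMPs) were followed as 9 genes, Mmp2, Mmp3, Mmp9, Mmp10, Mmp13, Mmp14, Timp1, Timp2 and Timp3, out of 37991 genes in the count table. They were taken by symbol, through the Ensembl identifier of each row. The 45 RNA-seq libraries came from primary mouse embryonic fibroblasts (MEFs) of strain C57BL/6, connective tissue cells grown from embryos, all held overnight in medium with 0.5% bovine calf serum before any stimulus. The p53KO cells (p53-/-) lacked p53, the transcription factor that arrests or kills damaged cells. They gave 2 libraries per group, titled KO-1 and KO-2. These were taken here as 2 cultures, which the titles do not state. Whether KO-1 and KO-2 came from separate embryos is not given, so p-values measure the spread between them, which may be technical. The wild-type (WT) littermate cells gave 1 library per group, so WT values carry no replicate error. The WT libraries were taken as 1 culture. In each genotype, the cells received interleukin-1 beta (IL-1b, 10 ng/ml), tumour necrosis factor (TNF, 10 ng/ml) or bacterial lipopolysaccharide (LPS, 100 ng/ml), and RNA was taken at 0.5, 1, 3 and 8 h. Each stimulus had its own 0 h libraries, which received no agent. The series set WT and p53KO cells side by side to see whether inflammatory genes respond alike without p53, which lengthens the life of such cultures.

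MMPs are zinc-dependent proteases, secreted or held at the cell surface, that cut collagens, proteoglycans and other matrix proteins. Most are made as inactive proenzymes, and TIMPs block the active site of the mature enzymes. Fibroblasts are a main source of both in connective tissue, and inflammatory cytokines are known to raise stromelysin and collagenase transcripts in them through AP-1 and NF-kB. Only transcripts were measured here, not proenzymes, active enzymes or inhibitor protein.

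Gene counts totalled 5619870 to 15355994 per library (median 9347770). All 9 genes passed the filter on low values, as did 13851 genes in all. Trp53, the gene of p53, lay at 50.9 to 86.6 CPM (counts scaled to library size) in KO-1, 53.9 to 83.2 CPM in KO-2 and 158 to 293 CPM in WT, 15 libraries each. Fibroblast markers summed to 32890 to 42720 CPM at 0, 3 and 8 h, with all 12 of 12 present, and 0 of 10 neutrophil markers passed the filter. All 12 of 12 macrophage markers passed it, and none was at 0 in any library. Their sums in p53KO were 319 to 405 CPM at 0 h, 378 to 501 CPM at 3 h and 373 to 515 CPM at 8 h. In WT they were 433 to 449, 603 to 631 and 509 to 564 CPM. At 0 h, muscle marker sums were 105 to 132 CPM in p53KO and 53.2 to 63.4 CPM in WT, epithelial ones 46.6 to 51.4 and 34.3 to 36.9 CPM, and endothelial ones 15.8 to 17.7 and 7.97 to 10.9 CPM. Of these lists, 2 of 5, 6 of 7 and 4 of 6 markers passed the filter. Des (median 106 CPM over all libraries) made most of the muscle sum, where Myod1 was at 0 and Myog at 0.136 CPM. Kdr (13.4 CPM) made most of the endothelial sum. Krt8, Krt18 and Krt19 had medians of 6.77, 19.9 and 24.1 CPM, and Epcam and Cdh1 of 0.274 and 0.530 CPM. In such bulk samples, fewer cells of a type and less RNA per cell cannot be told apart.

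The 3 genes of the stromelysin and collagenase kind lie together on chromosome 9, where 10 Mmp genes stand within 427 kb (mm9, 7272514 to 7699585). Mmp13 (7272514 to 7283333), Mmp3 (7445822 to 7455972) and Mmp10 (7502352 to 7510238) are all on the plus strand. Mmp2 lies on chromosome 8 (95351227 to 95377316), Mmp9 on chromosome 2 (164766280 to 164781350) and Mmp14 on chromosome 14 (55050441 to 55060095). Timp1 is on chromosome X (20447292 to 20451861) inside the span of Syn1, Timp3 on chromosome 10 (85763117 to 85812251) inside that of Syn3, and Timp2 on chromosome 11 (118162383 to 118217054, minus strand), where its span holds Cep295nl. Syn1 and Syn3 run on the opposite strand, and the strand setting of the counting is not given in the sources used here. Syn1, Cep295nl and Syn3 held at most 74, 53 and 40 counts in a library.

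RefSeq promoter windows (GRCm38.p6, 250 bases before to 50 after the annotated start) were available for 7 of the 9 genes, and 4 are shown because these genes had the steepest rises among those 7. Capitals mark the AP-1 motif TGANTCA and the TATAAA of a core promoter box in Mmp3 (chr9:7445572-7445871), Mmp10 (chr9:7502092-7502391) and Mmp13 (chr9:7272264-7272563). In Timp1 (chrX:20869916-20870215) they mark a loose NF-kB motif (3 G, any 5 bases and 2 C), counting overlapping matches on either strand. All 4 windows are on the plus strand.
Mmp3: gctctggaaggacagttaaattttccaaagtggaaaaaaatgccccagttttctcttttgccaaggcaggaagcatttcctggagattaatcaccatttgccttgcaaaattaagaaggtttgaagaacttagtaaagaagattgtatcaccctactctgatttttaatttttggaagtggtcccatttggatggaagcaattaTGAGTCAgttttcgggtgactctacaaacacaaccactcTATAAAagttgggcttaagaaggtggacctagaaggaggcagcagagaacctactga
Mmp10: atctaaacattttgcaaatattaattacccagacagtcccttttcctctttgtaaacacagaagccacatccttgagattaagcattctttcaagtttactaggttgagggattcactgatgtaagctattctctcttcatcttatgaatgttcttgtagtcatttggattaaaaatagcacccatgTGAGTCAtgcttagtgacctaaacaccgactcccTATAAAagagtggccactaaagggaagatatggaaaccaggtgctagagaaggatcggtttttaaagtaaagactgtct
Mmp13: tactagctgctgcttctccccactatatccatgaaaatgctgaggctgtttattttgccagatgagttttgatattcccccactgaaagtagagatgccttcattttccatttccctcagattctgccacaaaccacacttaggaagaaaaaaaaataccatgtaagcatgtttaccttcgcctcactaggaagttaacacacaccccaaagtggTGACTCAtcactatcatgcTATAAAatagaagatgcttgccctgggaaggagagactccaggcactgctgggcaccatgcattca
Timp1: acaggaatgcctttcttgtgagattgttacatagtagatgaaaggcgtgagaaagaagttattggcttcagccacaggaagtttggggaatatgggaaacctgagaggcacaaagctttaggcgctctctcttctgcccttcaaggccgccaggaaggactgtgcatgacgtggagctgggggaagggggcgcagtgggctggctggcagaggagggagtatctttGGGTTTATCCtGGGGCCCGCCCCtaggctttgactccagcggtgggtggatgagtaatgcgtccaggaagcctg
Mmp3, Mmp10 and Mmp13 each held both strings of letters in the same order, an AP-1 motif and then TATAAA. The AP-1 motif began 46, 63 and 35 bases before the annotated start in these 3 genes, and TATAAA began 7, 29 and 16 bases before it. Of 32851 promoter windows, 7.81% held TGANTCA on either strand, 8.32% held TATAAA on the gene's strand and 0.995% held both. Mmp14, Timp1, Timp2 and Timp3 held neither. These 4 held the loose NF-kB motif, as did 50.8% of all windows, and Mmp3, Mmp10 and Mmp13 did not. A match is a description of these letters and not a bound site.

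Before any stimulus, the 9 genes fell into an abundant and a sparse set. Per kb of merged exons at 0 h in p53KO, the median level over 6 libraries was 222 CPM per kb for Timp1, 163 for Timp2, 157 for Mmp14, 88.5 for Mmp2 and 80.4 for Timp3. The sparse set stood at 3.20 CPM per kb for Mmp3, 3.09 for Mmp9, 2.40 for Mmp13 and 0.472 for Mmp10. Timp2 and Mmp14 did not separate, with 147 to 172 and 133 to 168 CPM per kb over the 6 libraries, and Mmp2 and Timp3 met closely, at 83.5 to 95.7 and 77.0 to 85.9. Mmp3, Mmp9 and Mmp13 overlapped as well. Length matters for 2 of them: with the longest transcript in place of merged exons, Mmp14 came to 289 and Timp3 to 139 CPM per kb, which puts Mmp14 first.

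**Figure D1:**
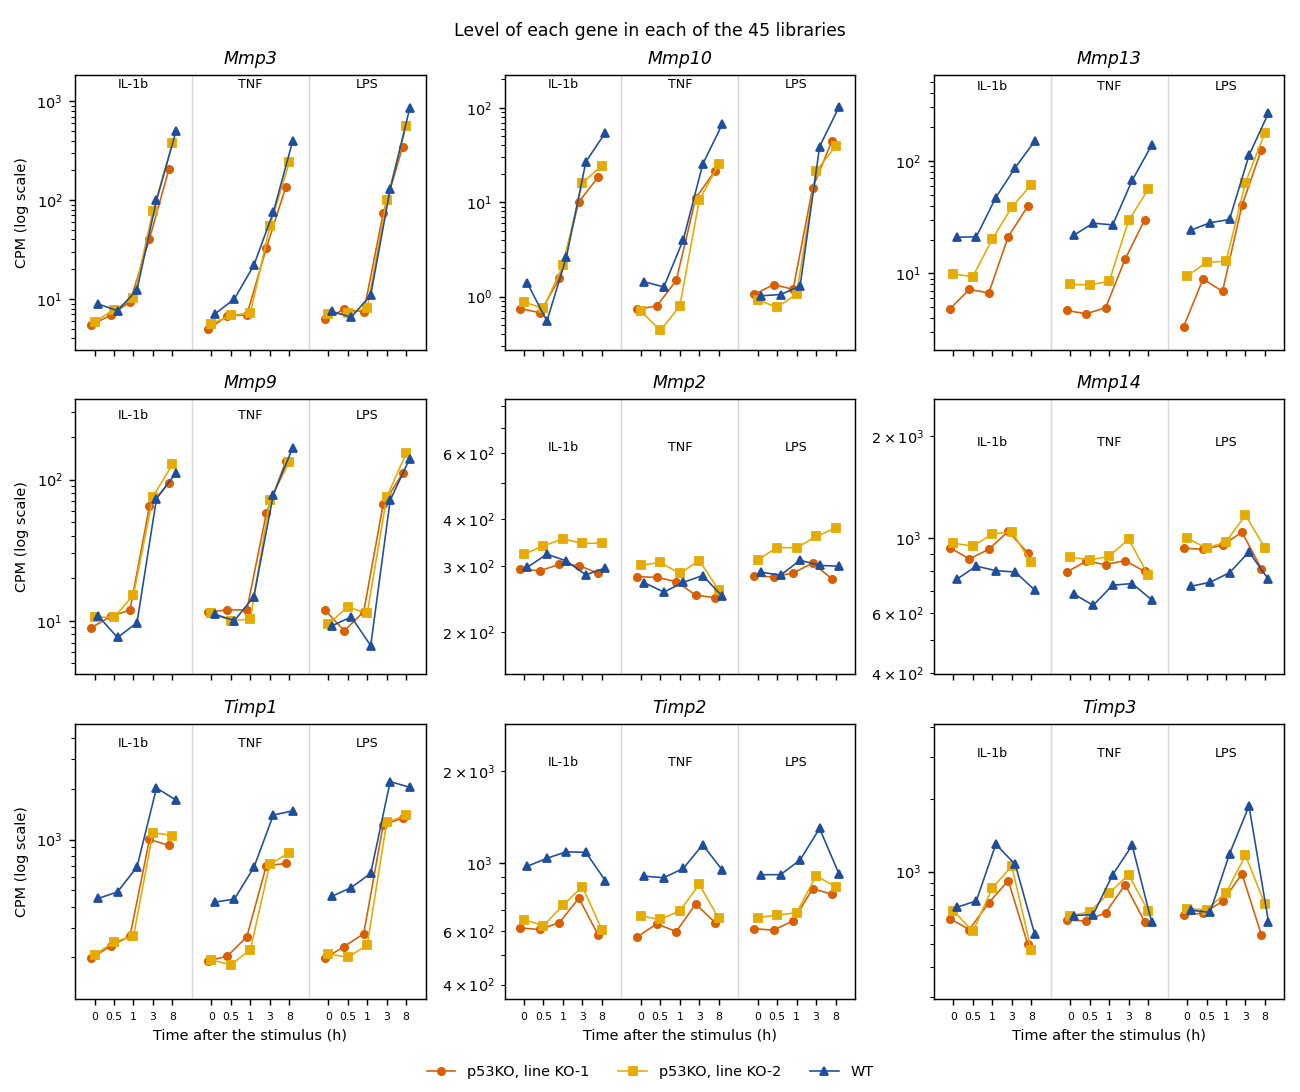
CPM on a log axis for each gene in each library, by time after IL-1b, TNF or LPS; orange circles are KO-1, yellow squares KO-2 and blue triangles WT, and each point is 1 library. Mmp3, Mmp10, Mmp13, Mmp9 and Timp1 climb between 1 and 3 h, while Mmp2 and Mmp14 keep nearly level lines.

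Stimulation raised 5 genes by a large factor and moved the abundant proteases Mmp2 and Mmp14 little. In p53KO, 7 of 9 genes were higher at 3 h than at 0 h after each of the 3 stimuli (edgeR quasi-likelihood test, Benjamini-Hochberg adjusted p under 0.05), against 21%, 18.4% and 21.9% of all genes for IL-1b, TNF and LPS. They were Mmp3, Mmp9, Mmp10, Mmp13, Timp1, Timp2 and Timp3 each time. At 8 h, the genes higher numbered 5, 5 and 6 for IL-1b, TNF and LPS, against 12.5%, 14.5% and 17% of all genes, and Timp3 was lower after IL-1b, as were 11.8% of all genes. The median log2 change of the 9 genes at 8 h was 2.30, 2.02 and 2.75 for the 3 stimuli, and that of all 13851 genes was -0.001, -0.013 and -0.025. At 1 h, only Timp1 passed, after all 3 stimuli, against 2.78%, 3.05% and 2.79% of genes higher at that time. At 0.5 h, edgeR and DESeq2 called 0 of 9, where edgeR called 7.39%, 0.751% and 0.527% of all genes, and the only unadjusted p under 0.05 was that of Timp1 after IL-1b. In the IL-1b libraries at 0.5 h, levels relative to the culture's mean fell with gene length (Spearman rho -0.392 in KO-1 and -0.529 in KO-2). At 0 h of that series rho was 0.149 and -0.11. The part of this trend in the 7.39% was not tested.

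Between 3 and 8 h the members parted. Of the 9 genes, 6 differed at 8 h from 3 h after each stimulus, against 35.5%, 25% and 38.2% of all genes for IL-1b, TNF and LPS. Mmp3, Mmp9 and Mmp10 went on rising after all 3 stimuli, while Mmp14 and Timp3 fell after all 3.

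Stromelysins cut proteoglycans, laminin and fibronectin and can activate other proMMPs. Mmp3 (stromelysin 1) had the largest estimated rise of the 9 genes at 8 h, in p53KO and in WT. Mmp10 was close after TNF in p53KO (log2 4.98, SE 0.33, against 5.13, SE 0.39) and farther off after IL-1b (4.71 against 5.67). These genes were not tested against each other. After IL-1b, Mmp3 stood at 5.49 and 5.88 CPM at 0 h, 40.5 and 77.8 CPM at 3 h and 206 and 376 CPM at 8 h in KO-1 and KO-2, and at 8.92, 99.2 and 495 CPM in WT. After TNF, it stood at 4.92 and 5.63 CPM, 32.8 and 54.4 CPM and 136 and 241 CPM at these times in KO-1 and KO-2, and at 7.06, 75.7 and 399 CPM in WT. After LPS, the values were 6.23 and 7.08 CPM, 73.5 and 99.4 CPM and 348 and 564 CPM in KO-1 and KO-2, and 7.49, 129 and 846 CPM in WT. The libraries of the 3 times did not overlap within any series, and WT was above both p53KO cultures at 3 and 8 h after each stimulus. In p53KO the log2 change at 8 h was 5.67 for IL-1b (SE 0.36, adjusted p = 1.21e-11), 5.13 for TNF (SE 0.39, adjusted p = 5.34e-10) and 6.09 for LPS (SE 0.36, adjusted p = 3.27e-13), or 51.0, 35.0 and 68.2 times the 0 h level. From 3 to 8 h alone Mmp3 rose by a further 2.30, 2.10 and 2.40 on the log2 scale (adjusted p = 4.70e-07, 9.03e-06 and 1.26e-07).

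Mmp10 (stromelysin 2) started lower, with 6 counts in the sparsest library at 0 h, and climbed as early. It lay at 0.704 to 1.05 CPM at 0 h over the 6 p53KO libraries (median 0.813). After IL-1b it reached 10.1 and 16.0 CPM at 3 h and 18.6 and 24.5 CPM at 8 h in KO-1 and KO-2, against 26.9 and 54.8 CPM in WT. After TNF the levels were 11.1 and 10.5 CPM and 21.6 and 25.3 CPM in KO-1 and KO-2, against 25.3 and 67.0 CPM in WT. LPS took it to 14.1 and 21.4 CPM at 3 h and 45.04 and 39.1 CPM at 8 h in KO-1 and KO-2, against 38.9 and 103 CPM in WT, where 0 h libraries stood at 1.02 to 1.44 CPM. The log2 change in p53KO was 3.98, 3.88 and 4.15 at 3 h after IL-1b, TNF and LPS (SE 0.32, 0.38 and 0.30) and 4.71, 4.98 and 5.39 at 8 h (SE 0.29, 0.33 and 0.26). All of these had an adjusted p of 1.37e-08 or less. The rise from 3 to 8 h after IL-1b (log2 0.72, adjusted p = 0.00390) was lost without the KO-1 library at 3 h (0.42, adjusted p = 0.142) or the KO-2 library at 8 h (0.51, adjusted p = 0.0974). Mmp3 and Mmp10 transcripts are alike: 8.39% of the 50-base stretches of Mmp3 also occur in Mmp10 or Gm15244 and 8.37% of those of Mmp10 occur in Mmp3, so some of their reads may have been left out as not unique.

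Mmp13 (collagenase 3), which cuts fibrillar collagen and is the chief collagenase of the mouse, rose after all 3 stimuli in p53KO, with its largest estimate after LPS. After IL-1b, Mmp13 stood at 4.82 and 9.83 CPM at 0 h, 21.3 and 38.8 CPM at 3 h and 39.4 and 61.4 CPM at 8 h in KO-1 and KO-2, and at 20.9, 87.3 and 150 CPM in WT. After TNF, it stood at 4.68 and 7.98 CPM, 13.4 and 29.5 CPM and 29.9 and 55.8 CPM in KO-1 and KO-2, and at 21.8, 67.1 and 138 CPM in WT. After LPS, it stood at 3.35 and 9.44 CPM, 40.3 and 64.2 CPM and 126 and 179 CPM in KO-1 and KO-2, and at 24.2, 112 and 267 CPM in WT. KO-2 was above KO-1 at every point, and WT above both. The log2 change at 8 h in p53KO was 2.79 for IL-1b (SE 0.47, adjusted p = 8.25e-05), 2.67 for TNF (SE 0.53, adjusted p = 0.000456) and 4.54 for LPS (SE 0.45, adjusted p = 1.05e-08). At 3 h it was 2.04, 1.73 and 3.00 (adjusted p = 0.00181, 0.0219 and 1.64e-05). The 3 h call after TNF was lost without the KO-1 library at 0 h (1.40, adjusted p = 0.144) or the KO-2 library at 3 h (1.07, adjusted p = 0.267). The rise from 3 to 8 h passed after LPS (1.54, adjusted p = 0.00126) and, with culture as a block, also after IL-1b (0.77, adjusted p = 0.000138) and TNF (1.01, adjusted p = 2.40e-05). With that block Mmp13 was also called at 1 h after IL-1b (0.83, adjusted p = 0.00877), where the 4 values of KO-1 and KO-2 were 6.70 and 20.1 CPM at 1 h and 4.82 and 9.83 CPM at 0 h.

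The gelatinases cut denatured collagen and the collagen of basement membranes, and the pair behaved unlike each other. Mmp9 (gelatinase B) lay at 8.90 to 11.97 CPM (median 10.9) at 0 h, 57.6 to 75.8 CPM (median 69.2) at 3 h and 94.9 to 153 CPM (median 131) at 8 h over 6 p53KO libraries per time. WT spanned 9.19 to 11.1 CPM, 71.3 to 78.1 CPM and 112 to 169 CPM at these times, inside or next to the p53KO range. The log2 change of Mmp9 in p53KO was 2.85, 2.50 and 2.73 at 3 h and 3.51, 3.55 and 3.63 at 8 h after IL-1b, TNF and LPS (SE 0.18 to 0.19 in all 6, adjusted p of 2.32e-10 or less). Mmp9 is also a product of macrophages and neutrophils. The macrophage marker sums given above were 319 to 405 CPM in p53KO at 0 h and 373 to 515 CPM at 8 h, and neutrophil marker sums were at most 1.46 CPM in p53KO and 1.70 CPM in WT at 8 h. Their part in the rise of Mmp9 was not tested. The rise from 3 to 8 h after IL-1b (0.66, adjusted p = 0.000981) was lost without the KO-2 library at 8 h (0.43, adjusted p = 0.0581).

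Mmp2 (gelatinase A), a constitutive product of fibroblasts, was not called at any time after any stimulus. Its levels spanned 248 to 379 CPM over all 30 p53KO libraries and 250 to 323 CPM over the 15 of WT. The log2 change in p53KO lay between -0.20 (TNF at 8 h, SE 0.13, adjusted p = 0.280) and 0.16 (LPS at 3 h, SE 0.13, adjusted p = 0.339). With culture as a block, the first of these was called (-0.20, adjusted p = 0.0362). Mmp14, the membrane-type protease that activates proMmp2 at the cell surface, was the most abundant of the 6 Mmp transcripts before stimulation. It spanned 794 to 1000 CPM at 0 h, 858 to 1169 CPM at 3 h and 778 to 935 CPM at 8 h in p53KO, against 684 to 756, 734 to 910 and 658 to 755 CPM in WT. With 0 h libraries of the same series, Mmp14 was not called against 0 h at any time, and the nearest was LPS at 3 h (log2 0.19, SE 0.08, adjusted p = 0.0611). That change passed with culture as a block (0.19, adjusted p = 0.0229), with DESeq2 (0.21, adjusted p = 0.0460), with DESeq2's size factors (0.21, adjusted p = 0.0433), without a filter on low counts (0.21, adjusted p = 0.0328), with the length trend removed (0.20, adjusted p = 0.0467) and without the KO-1 library at 3 h (0.27, adjusted p = 0.0334). Against 0 h libraries pooled over the 3 series it also passed (0.27, adjusted p = 0.00140), as did Mmp14 at 3 h after IL-1b (0.19, adjusted p = 0.0205) and at 8 h after TNF (-0.22, adjusted p = 0.0125). From 3 to 8 h Mmp14 fell by 0.25, 0.23 and 0.34 on the log2 scale after IL-1b, TNF and LPS (adjusted p = 0.0181, 0.0408 and 0.00196), but single libraries decided each of these calls. After IL-1b the call was lost without the KO-1 library at 3 h (-0.25), the KO-2 library at 3 h (-0.27) or the KO-2 library at 8 h (-0.21). After TNF it was lost without the KO-1 library at 8 h (-0.25), the KO-2 library at 3 h (-0.12) or the KO-2 library at 8 h (-0.22), and after LPS without the KO-1 library at 8 h (-0.24) or the KO-2 library at 3 h (-0.25).

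**Figure D2:**
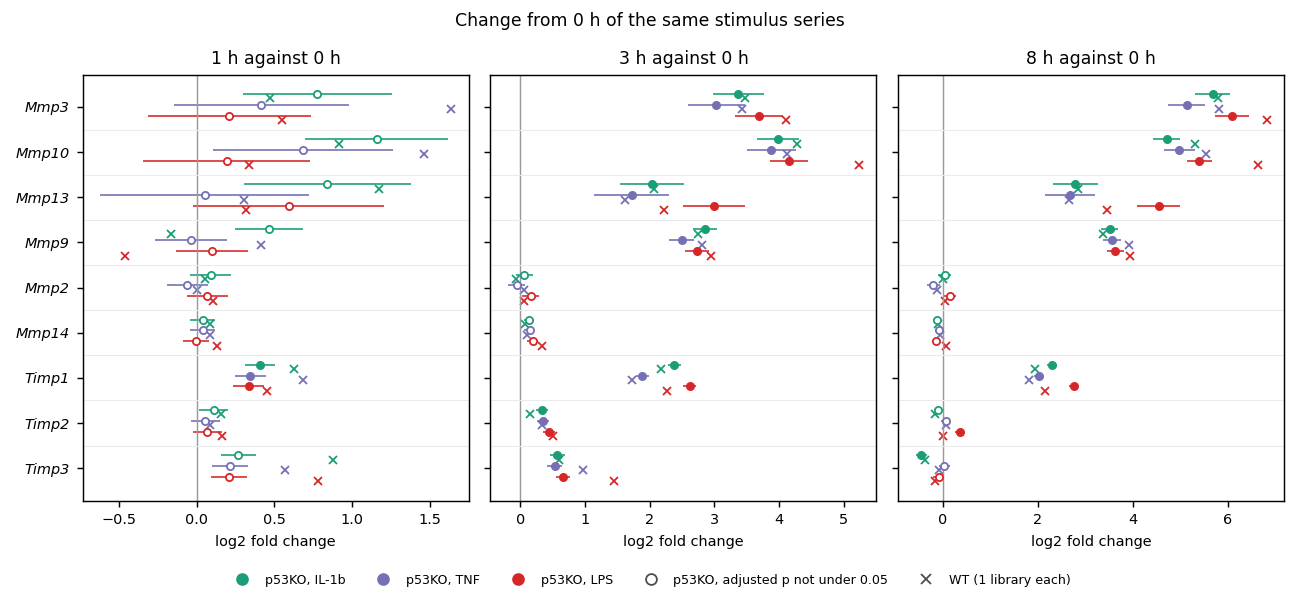
Log2 fold change from 0 h of the same series at 1, 3 and 8 h for each gene; circles are p53KO (mean of 2 libraries, bars are the SE of the fit, filled where the adjusted p was under 0.05) and crosses are WT with 1 library. The x axes differ between panels, and at 8 h Mmp3 lies farthest to the right, from 5.13 to 6.09 in p53KO.

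Among the inhibitors, Timp1, which also binds proMmp9, was the one that rose strongly. Its levels in KO-1 and KO-2 were 197 and 206 CPM at 0 h, 1001 and 1100 CPM at 3 h and 925 and 1056 CPM at 8 h after IL-1b, against 447, 2025 and 1718 CPM in WT. After TNF they were 190 and 193 CPM, 700 and 715 CPM and 721 and 834 CPM in KO-1 and KO-2, against 425, 1399 and 1481 CPM in WT. After LPS they were 197 and 209 CPM, 1223 and 1269 CPM and 1341 and 1391 CPM in KO-1 and KO-2, against 459, 2212 and 2044 CPM in WT. The increase was in place by 3 h, and the step from 3 to 8 h was called after no stimulus (log2 -0.09, 0.14 and 0.13). With the length trend of each library removed, that step was called after TNF (0.30, adjusted p = 0.0113) and LPS (0.24, adjusted p = 0.0270). The log2 change at 3 h in p53KO was 2.38, 1.89 and 2.62 for IL-1b, TNF and LPS (SE 0.10 each), with adjusted p = 8.38e-16, 1.40e-13 and 6.60e-17. At 1 h it was 0.41, 0.35 and 0.33 (SE 0.10 each, adjusted p = 0.00846, 0.0324 and 0.0422). These early calls were lost when each library's trend on transcript length was removed (0.25, 0.19 and 0.22, adjusted p = 0.103, 0.257 and 0.187). They were also lost without the KO-1 library at 0 h (0.37, 0.34 and 0.29) or at 1 h (0.40, 0.21 and 0.22), without the KO-2 library at 1 h after IL-1b (0.41), and without the KO-2 library at 0 h after TNF (0.36) and LPS (0.38). The 1 h values were above 0 h in all 6 p53KO pairs and in WT, where Timp1 reached 688, 683 and 630 CPM.

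Timp2, which both inhibits Mmp2 and takes part in its activation by Mmp14, moved little. In p53KO it spanned 574 to 671 CPM (median 633) at 0 h, 735 to 910 CPM (median 831) at 3 h and 580 to 838 CPM (median 649) at 8 h. WT spanned 907 to 978, 1085 to 1300 and 876 to 950 CPM. At 3 h it rose by 0.34, 0.35 and 0.45 on the log2 scale after IL-1b, TNF and LPS (SE 0.09 each, adjusted p = 0.00423, 0.00454 and 0.000361), and at 8 h only the LPS change passed (0.36, SE 0.09, adjusted p = 0.00401). Single libraries decided 3 of these calls. They were the KO-1 library at 0 h (IL-1b 0.30, TNF 0.24 at 3 h, LPS 0.30 at 8 h, adjusted p = 0.0518, 0.103 and 0.0596) and the KO-2 library at 3 h (IL-1b 0.29, TNF 0.24, adjusted p = 0.0526 and 0.0980). From 3 to 8 h Timp2 fell by 0.44 after IL-1b and 0.29 after TNF (adjusted p = 0.000610 and 0.0236) and was not called after LPS (log2 -0.09). The TNF call was lost without the KO-2 library at 3 h (-0.18), the KO-1 library at 8 h (-0.27) or the KO-2 library at 8 h (-0.31).

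Timp3, which binds to the matrix and also inhibits ADAM17 and aggrecanases, rose and came down within the course. In KO-1 and KO-2 it stood at 636 and 687 CPM at 0 h, 916 and 1054 CPM at 3 h and 497 and 470 CPM at 8 h after IL-1b, against 709, 1070 and 547 CPM in WT. After TNF it stood at 627 and 653 CPM, 881 and 969 CPM and 618 and 685 CPM, against 655, 1287 and 616 CPM in WT. After LPS it stood at 657 and 699 CPM, 978 and 1167 CPM and 543 and 731 CPM, against 690, 1877 and 617 CPM in WT. All 9 libraries at 3 h, p53KO and WT, were above all 9 at 0 h. The log2 change at 3 h in p53KO was 0.57, 0.53 and 0.66 after IL-1b, TNF and LPS (SE 0.11 each, adjusted p = 0.000239, 0.000704 and 4.02e-05). From 3 to 8 h Timp3 fell by 1.03, 0.51 and 0.75 (adjusted p = 1.39e-07, 0.00201 and 1.03e-05). At 8 h it was lower than at 0 h after IL-1b (log2 -0.45, adjusted p = 0.00510), a call lost without the KO-2 library at 0 h (-0.40, adjusted p = 0.0591), and was not called after TNF (0.03) or LPS (-0.09). Of the 50-base stretches of Timp3 transcripts, 36.3% occur in other genes, so a part of its reads may have been left out as not unique.

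The summed levels put these changes on a common scale. Per kb of merged exons, the 6 Mmp genes together came to 225 to 271 CPM per kb at 0 h, 264 to 416 at 3 h and 344 to 715 at 8 h in the 6 p53KO libraries per time, against 211 to 232, 311 to 399 and 544 to 884 in the 3 of WT. The 3 Timp genes came to 438 to 492, 1085 to 1806 and 1052 to 1871 CPM per kb in p53KO, against 791 to 841, 2028 to 3055 and 1988 to 2614 in WT. The ratio of the Mmp sum to the Timp sum was 0.513 to 0.554 at 0 h, 0.204 to 0.286 at 3 h and 0.290 to 0.382 at 8 h in p53KO, against 0.266 to 0.276, 0.127 to 0.153 and 0.270 to 0.338 in WT. At 3 h the ratio was below every 0 h library of its genotype. At 0 h the p53KO libraries had ratios near 2 times those of WT, medians 0.547 against 0.267, and at 8 h the ranges over the 3 stimuli overlapped. Within a stimulus at 8 h, WT was below KO-1 and KO-2 after IL-1b (0.2695 against 0.3226 and 0.3755) and TNF (0.2737 against 0.3274 and 0.3475). After LPS it lay between them (0.3383 against 0.2901 and 0.3823). With longest transcripts the medians were 0.743, 0.311 and 0.420 in p53KO, against 0.366, 0.165 and 0.315 in WT at 0, 3 and 8 h. Mmp3, Mmp9, Mmp10 and Mmp13 made up 3.09 to 3.94% of the Mmp sum at 0 h and 39.8 to 62.4% at 8 h in p53KO, against 7.18 to 7.60% and 65.7 to 75.6% in WT. Timp1 made up 46.2 to 48.8% of the Timp sum at 0 h and 77.2 to 84.8% at 8 h in p53KO, against 59.8 to 61.8% and 83.9 to 88.1% in WT. These sums are of transcripts and were not tested.

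**Figure D3:**
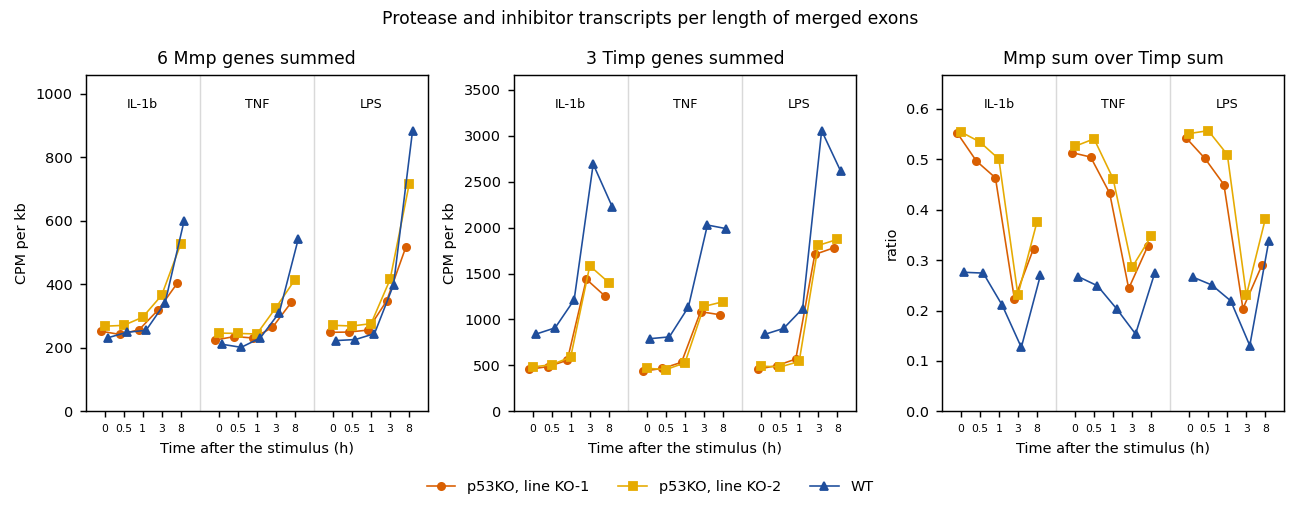
CPM per kb of merged exons summed over the 6 Mmp genes (left) and the 3 Timp genes (middle), and the ratio of the sums (right), by stimulus and time; each point is 1 library of KO-1, KO-2 or WT. The ratio dips at 3 h after each stimulus, to 0.204 to 0.286 in p53KO and 0.127 to 0.153 in WT.

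The stimuli were compared by an F test over the 4 times of the difference in change from 0 h in p53KO. Timp1 was the 1 gene of 9 called between LPS and TNF (adjusted p = 6.02e-05), against 5.14% of all genes, with a change larger after LPS by 0.73 at 3 h and 0.73 at 8 h on the log2 scale (SE 0.14 each). It was also the 1 gene called between LPS and IL-1b (adjusted p = 0.0146), against 6.91% of genes, with a difference of 0.24 at 3 h and 0.45 at 8 h (SE 0.13 each). That call was lost without the KO-1 library at 8 h after IL-1b (adjusted p = 0.0771) or the KO-2 library at 8 h after LPS (0.0531). Between IL-1b and TNF, edgeR and DESeq2 called 0 of 9 genes, against 1.42% of all genes by edgeR. At an unadjusted p under 0.05 there were 2, Timp1 and Timp3. Mmp13 had the largest estimates, with an LPS change above that of TNF by 1.87 (SE 0.78) and above that of IL-1b by 1.75 (SE 0.71) at 8 h, and did not pass (adjusted p = 0.535 and 0.195 over the 4 times). With culture as a block it did (adjusted p = 8.08e-05 and 7.21e-07), as did Mmp3 between LPS and TNF (0.0133), Timp2 between LPS and IL-1b (0.000909) and Timp3 between IL-1b and TNF (0.0130), which made 3, 3 and 1 genes for the 3 pairs.

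Levels were lower in p53KO than in WT for most of the stimulated members and for all 3 inhibitors. Counts were summed over the 15 libraries of each culture, with KO-1 and KO-2 set against 1 WT culture. The fit thus has 1 residual degree of freedom. Its SE and p-values lean on a spread shared across genes and not on the p53KO pair of each gene alone. WT cultures, of which there is 1, are taken to have that same spread. Of 9 genes, 8 were called, where 40.4% of all 12918 genes were. The log2 difference, p53KO over WT, was -1.44 for Mmp13 (SE 0.21, adjusted p = 0.00149), -1.39 for Mmp10 (SE 0.07, adjusted p = 1.55e-05), -1.07 for Timp1 (SE 0.06, adjusted p = 1.54e-05) and -0.96 for Mmp3 (SE 0.19, adjusted p = 0.00643). It was -0.57 for Timp2 (SE 0.07, adjusted p = 0.000763), -0.35 for Timp3 (SE 0.07, adjusted p = 0.00823) and -0.20 for Mmp9 (SE 0.05, adjusted p = 0.0205). Mmp14 alone was higher in p53KO, by 0.29 (SE 0.07, adjusted p = 0.0117), and Mmp2 was not called (0.07, SE 0.09). WT was above both p53KO cultures in 15 of 15 matched sets for Mmp13, Timp1 and Timp2, in 13 for Mmp3, 12 for Mmp10, 10 for Timp3 and 4 for Mmp9, and for Mmp9 it was below both in 6. For Mmp14 it was below both in 15 of 15. Summed counts give more weight to deep libraries and, for the genes that rose, to those at 3 and 8 h. With libraries in place of cultures as samples, the log2 difference was -0.60 for Mmp3 and -0.84 for Mmp10. It was -1.60 for Mmp13, -1.08 for Timp1, -0.54 for Timp2, -0.25 for Timp3 and 0.30 for Mmp14.

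Much of this difference was present before the stimulus for some genes and not for others. With the 3 libraries of each culture at 0 h summed in the same way and tested alone, 4 of 9 were called, against 25.6% of 12993 genes. They were Mmp13 (-1.72, adjusted p = 5.41e-05), Timp1 (-1.16, adjusted p = 3.73e-08), Timp2 (-0.57, adjusted p = 0.000149) and Mmp14 (0.36, adjusted p = 0.00614). Mmp3 (-0.41, adjusted p = 0.0910), Mmp10 (-0.58, adjusted p = 0.299), Timp3 (-0.05, adjusted p = 0.705) and Mmp9 (0.02, adjusted p = 0.929) were not. At 0 h, Mmp10 rested on 26, 27 and 33 counts in KO-1, KO-2 and WT. DESeq2 did not call Mmp3 (adjusted p = 0.157) or Mmp9 (0.0762) over all libraries, and Mmp9 turned to 0.05 (adjusted p = 0.547) with libraries in place of cultures as samples. Bone and cartilage markers, whose cells also make Mmp13, summed to 91.1 to 102 CPM in p53KO and 201 to 220 CPM in WT at 0 h. Of that list 6 of 8 passed the filter, and Bglap was at most 0.139 CPM in any library. Col2a1 spanned 38.0 to 175 CPM over all 45 libraries, Sox9 11.4 to 55.1 CPM, Acan 14.1 to 30.5 CPM, Ibsp 0 to 55.9 CPM and Col10a1 1.89 to 31.6 CPM. The macrophage marker sums at 0 h were 319 to 405 CPM in p53KO, against 433 to 449 CPM in WT. The part of either list in the differences was not tested.

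**Figure D4:**
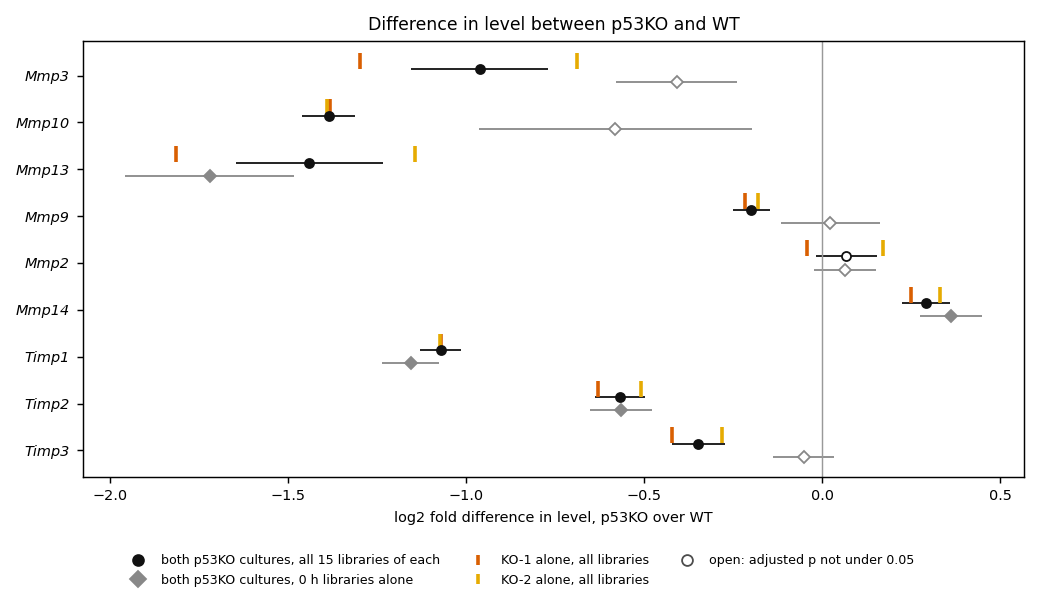
Log2 difference in level, p53KO over WT, for each gene; black circles use counts summed over all 15 libraries of each culture, grey diamonds the 0 h libraries alone, bars are the SE, open symbols did not pass, and the short bars are KO-1 and KO-2 alone against WT. Timp1, Timp2 and Mmp13 lie left of 0 in both settings, Mmp14 lies right of it, and Mmp3, Mmp10, Timp3 and Mmp9 move toward 0 at 0 h.

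For the response itself, the change from 0 h in p53KO was set against that in WT. In the F test over 4 times, 2 of 9 genes differed after LPS, Timp1 (adjusted p = 0.0263) and Timp3 (adjusted p = 0.0148), against 2.66% of all genes. The change of Timp1 after LPS was larger in p53KO than in WT by 0.35 at 3 h and 0.60 at 8 h (SE 0.16 each), with changes of 2.62 and 2.75 in p53KO against 2.27 and 2.15 in WT. That of Timp3 was smaller in p53KO by 0.57 at 1 h and 0.78 at 3 h (SE 0.20 each, log2 -0.57 and -0.78), with a change of 0.66 in p53KO against 1.44 in WT at 3 h. None of these Timp1 and Timp3 differences at a single time passed on its own. After IL-1b and TNF, edgeR and DESeq2 called 0 of 9, against 5.74% and 0.462% of all genes by edgeR, and Timp1 and Timp3 were the 2 genes with an unadjusted p under 0.05 each time. With culture as a block, Timp3 passed after IL-1b (adjusted p = 0.0113), and after LPS there were 4 genes, with Mmp13 (0.0421) and Timp2 (0.0444) added. The LPS call of Timp3 was lost without the KO-1 library at 3 h (adjusted p = 0.0552) and that of Timp1 without the KO-2 library at 8 h (0.0712). Mmp10 had a WT change of 6.63 at 8 h after LPS against 5.39 in p53KO, a difference (log2 -1.24, SE 0.68) that did not pass.

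KO-1 and KO-2 differed most in Mmp13, where KO-2 was higher in 15 of 15 pairs of libraries by a median of 0.82 on the log2 scale (0.37 to 1.56). Mmp2 and Timp2 were also higher in KO-2 in 15 of 15 pairs, by medians of 0.22 and 0.12. Mmp3 was higher in KO-2 in 14 of 15 pairs, with a gap of up to 0.94, and Mmp9 in 8 and Mmp10 in 7. Timp1 was higher in 10 of 15 pairs, with a median of 0.05.

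Across the 15 p53KO group means, 5 of the members ran closely together. Log2 CPM of Mmp3, Mmp9, Mmp10, Mmp13 and Timp1 correlated with each other at Pearson r of 0.931 to 0.989, while Mmp2 correlated with these 5 at -0.036 to 0.222 Mmp14 at -0.080 to 0.179 and Timp3 at -0.010 to 0.273. Timp2 lay between, at 0.490 with Mmp3 to 0.696 with Timp1. Timp2 and Timp3 correlated at 0.775, and Timp3 and Mmp14 at 0.695. The points share 3 stimuli, 5 times and the same 2 cultures, so they are a description. Among all genes, those most like Mmp3 were Dram1 (r 0.994) and Glrx (0.989), and those most like Mmp13 were Glrx (0.984), Sod2 (0.982) and Igfbp3 (0.981). Mmp9 and Mmp10 were among each other's nearest (0.989), with Pdpn (0.990) and Col5a3 (0.989) beside Mmp9 and Serpinb2 (0.987) and Ggct (0.985) beside Mmp10. Timp1 was most like Penk (0.992), Serpinb2 (0.990) and Serpina3g (0.986). Timp3 was most like Prkg2 (0.964), Nectin3 (0.957) and Tnfrsf11b (0.956), and Timp2 like Elf1 (0.959), Parp8 (0.950) and Usp12 (0.942). For Mmp2 the nearest were Gaa (0.916), Ostc (0.901) and Znrd1 (0.899), and for Mmp14 Cpe (0.929), Serinc3 (0.921) and Atp6ap1 (0.908).

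Several other genes of the MMP and TIMP family fell after stimulation. Of 18 further family genes, 10 passed the filter, and after LPS at 8 h 3 were higher and 5 lower in p53KO (median log2 change -0.42, and -0.03 over all genes), against 17% higher and 17.2% lower among all genes. Mmp12 (macrophage elastase) rose to 25.4 ± 3.79 CPM at 8 h after LPS, against 1.84 ± 1.05 CPM at 0 h (SD, n = 2 each), a log2 change of 3.80 (adjusted p = 2.10e-10), and by 1.75 and 2.05 after IL-1b and TNF. Mmp11 (stromelysin 3) fell at 3 and 8 h after all 3 stimuli, to 27.1 ± 6.12 CPM at 8 h after LPS, against 56.4 ± 2.53 CPM at 0 h. Mmp16 and Mmp17, both held at the cell membrane, fell at 8 h after all 3 stimuli, by 1.15, 0.67 and 0.63 and by 0.74, 0.99 and 0.74 on the log2 scale after IL-1b, TNF and LPS. Mmp19 fell at 3 h after all 3 (log2 -0.80, -0.74 and -0.83), Mmp23 at 8 h after IL-1b and TNF (log2 -0.57 and -0.71), Mmp15 at 8 h after LPS and Mmp28 at 3 h after IL-1b. Mmp1b and Mmp8 (collagenases) were called higher from few counts: Mmp1b had 4, 0 and 2 counts at 0 h and 22, 27 and 29 at 8 h after IL-1b, TNF and LPS over both p53KO libraries, and Mmp8 had 4 at 0 h and 23 at 8 h after LPS. Of the 10 Mmp genes in the chromosome 9 cluster, 6 passed the filter. At 8 h, Mmp12, Mmp3, Mmp10 and Mmp13 were called higher after IL-1b, TNF and LPS, against 12.5%, 14.5% and 17% of all genes. The last 3 are among the 9 genes. Mmp1b was also called after all 3 stimuli and Mmp8 after LPS. Neither of these reached 1 CPM in a 0 h library, so both passed the filter through stimulated libraries, which favours a rise. The same holds for their place in the count of family genes higher after LPS. Mmp12 and Mmp1b overlap on opposite strands, so their reads may not be separable. The 8 family genes below the filter, Mmp1a, Mmp7, Mmp20, Mmp21, Mmp24, Mmp25, Mmp27 and Timp4, had 1 to 191 counts over all 45 libraries.

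Of the genes that activate or steer MMPs, most of the tested plasminogen genes rose at 3 h. In this system, whose protease plasmin activates proMMPs, 7, 8 and 8 of 9 tested genes were higher at 3 h after IL-1b, TNF and LPS, against 21%, 18.4% and 21.9% of all genes (median log2 change 0.57, 0.53 and 0.61, against -0.02, -0.01 and -0.02 over all genes). At 8 h, 5, 5 and 4 were higher and 1, 0 and 1 lower, against 12.5%, 14.5% and 17% of all genes higher and 11.8%, 14.1% and 17.2% lower. Plaur (the urokinase receptor) rose at 3 h by 2.19, 2.03 and 2.25 on the log2 scale, and Plau (urokinase) by 1.15, 1.13 and 1.33. Plau was below 0 h at 8 h after IL-1b and LPS (log2 -0.71 and -0.84). Serpinb2 (PAI-2) had 5, 2 and 4 counts at 0 h and 498, 333 and 1095 at 8 h after IL-1b, TNF and LPS over both p53KO libraries. It is among the 9 tested genes but did not reach 1 CPM in a 0 h library. Serpinb2 thus passed the filter through stimulated libraries, which favours a rise in the counts above.

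Among 15 tested MMP regulators, 7, 6 and 7 were higher at 3 h and 5, 4 and 7 at 8 h after IL-1b, TNF and LPS (median log2 change at 8 h 0.13, 0.04 and 0.18), and 3, 3 and 2 were lower at 8 h. Of all genes, 21%, 18.4% and 21.9% were higher at 3 h and 12.5%, 14.5% and 17% at 8 h, and 11.8%, 14.1% and 17.2% were lower at 8 h. Cd44, the hyaluronan receptor that docks Mmp9 at the surface, reached 1174 ± 10.7 CPM at 3 h and 533 ± 77.5 CPM at 8 h after LPS, against 272 ± 11.2 CPM at 0 h. Itgb3 and Tfpi2, an integrin subunit and a serine protease inhibitor, rose at 3 and 8 h after all 3 stimuli, by 1.84 and 1.73 on the log2 scale at 8 h after LPS. Lcn2, which binds Mmp9, had 1, 0 and 0 counts at 0 h and 228, 7 and 297 at 8 h over both p53KO libraries, and was called after IL-1b and LPS. It is among the 15 tested regulators but did not reach 1 CPM in a 0 h library. Lcn2 thus passed the filter through stimulated libraries, which favours a rise, both for its own calls and for its place in the counts above.

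The ADAM and ADAMTS proteases, several of which Timp3 inhibits, went in both directions: of 27 tested, 7, 5 and 6 were higher and 12, 5 and 10 lower at 8 h (median log2 change -0.32, -0.11 and -0.22), against 12.5%, 14.5% and 17% of all genes higher and 11.8%, 14.1% and 17.2% lower at that time. Adamts4 rose and Adamts5 fell at 3 and 8 h after all 3 stimuli, both being aggrecanases, with log2 changes of 0.99 and -1.09 at 8 h after LPS. Adamts1 fell in the same 6 contrasts (log2 -0.77 to -1.08), and Adamts14 rose at 8 h after IL-1b and LPS (0.43 and 0.87). Of 12 cathepsins and cystatins, 2, 2 and 4 were higher and 0, 1 and 0 lower at 8 h (median log2 change 0.06, -0.10 and 0.17), against those same shares of all genes, with Ctsc higher at 3 and 8 h after all 3 stimuli, by 0.79 at 8 h after LPS. Cstb also rose in all 6, Ctsh rose after LPS at 3 and 8 h, and Cst3, the inhibitor cystatin C, was lower at 8 h after TNF (log2 -0.31). Of 19 matrix substrates, 4, 2 and 7 were higher and 2, 1 and 0 lower at 8 h (median log2 change 0.10, -0.06 and 0.13), against the same 12.5%, 14.5% and 17% higher and 11.8%, 14.1% and 17.2% lower among all genes. Tnc (tenascin C) rose to 7003 ± 946 CPM at 8 h after LPS, against 2172 ± 442 CPM at 0 h. Vcan rose at 8 h after all 3 stimuli, Dcn after IL-1b and LPS, and Col4a1 at 3 h after all 3.

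**Figure D5:**
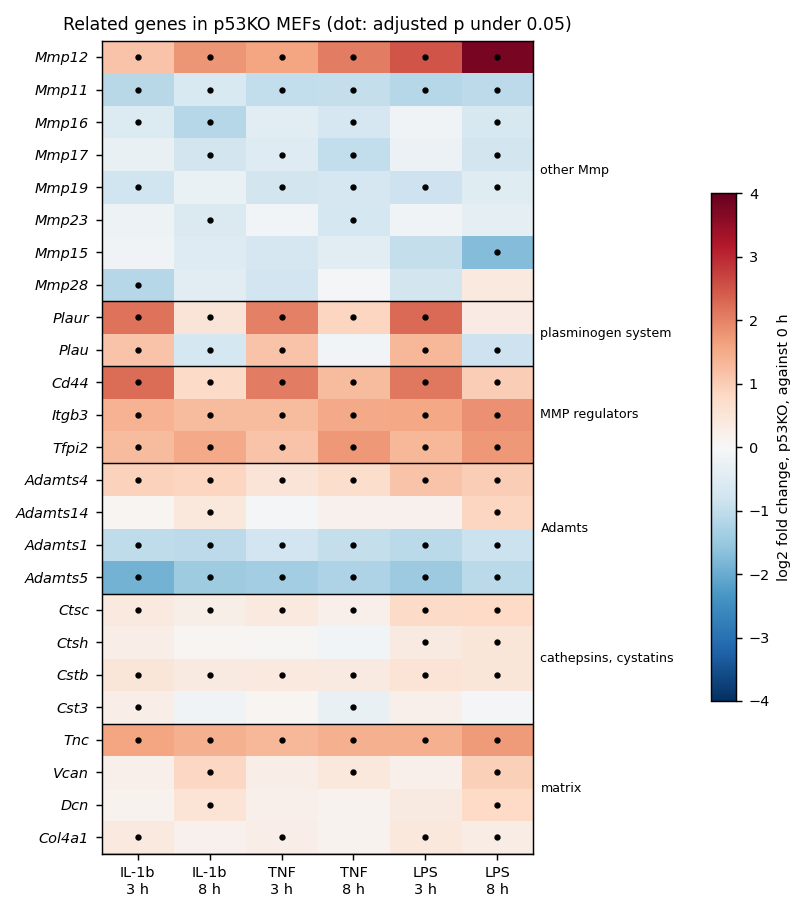
Colour gives the log2 fold change against 0 h in p53KO at 3 and 8 h after IL-1b, TNF and LPS for the named related genes, and a dot marks an adjusted p under 0.05. Serpinb2, Lcn2, Mmp1b and Mmp8 are left out because they had 0 to 6 counts per group at 0 h; Mmp12 is red and Mmp11 blue in all 6 columns.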

How the data were processed

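Poly(A) RNA was sequenced in paired-end 50-base reads from a stranded kit, per the labels' protocols. The authors deposited read counts per gene for 45 libraries. STAR, featureCounts and DESeq, and the mm9 build, are named in the submitters' processing notes, without versions. The strand setting is not given in the sources used here. The table holds 5 rows that name no gene, with 24.65% of all counts, which were left out, and 37991 genes, of which 32919 IDs matched a symbol. Unique gene counts per library set the precision: Mmp10 rested on 5 to 966 counts per library.

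From these counts, edgeR 4.0.16 (R 4.3.3) computed TMM factors and quasi-likelihood tests over 30 groups for the 13851 genes that reached 1 CPM in 2 or more libraries. P-values were adjusted over all genes by Benjamini-Hochberg, and 0.05 was the threshold. Adjusted p-values come from this fit, except for the level tests and where an alternative setting, a left-out library or DESeq2 1.42.0 is named. WT groups hold 1 library, so a WT change has no test, and tests against WT take its spread from p53KO. Levels were tested on counts summed per culture. CPM per kb used the lengths of GENCODE M21 merged exons. On simulated counts the scripts were tested for recovery of known folds.

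The members, the related gene lists and the cell type markers were chosen with earlier results of these data known. Of each related list, up to 4 genes with the smallest adjusted p at 8 h against 0 h were named, plus each further Mmp or Timp gene past the filter, and for each member the 3 genes of highest r. Of the genes so named, 2 are not reported here. The names KO-1 and KO-2 recur in every group's titles, so the culture was taken to pair libraries, and a fit with culture as a block is given where it changes a call. Over 105 pairs of groups, deviations of same-named libraries correlated with a median r of 0.191 (-0.169 to 0.504), and 73 pairs exceeded 0.1. Alternatives were DESeq2 and its size factors, no filter on low counts, the block, a length-trend correction, pooled 0 h libraries, longest transcripts and leaving out each p53KO library.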

Additional observations from a re-analysis of the deposited data

Results flagged for a closer look

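The response to LPS differed between p53KO and WT for 2 inhibitors, by the test of the difference itself over 4 times (edgeR, adjusted over all genes). For Timp1 the adjusted p was 0.0263, with a log2 change at 8 h of 2.75 in p53KO and 2.15 in WT, and KO-1 and KO-2 lay on the same side of WT. For Timp3 the adjusted p was 0.0148, with a log2 change at 3 h of 0.66 in p53KO and 1.44 in WT, where 1 library stood at 1877 CPM. WT had 1 library at each time. No difference at a single time passed on its own for either gene. The Timp1 call was lost without the KO-2 library at 8 h, and the Timp3 call without the KO-1 library at 3 h.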

How the results depend on the processing

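WT rests on 1 library per group and p53KO on 2, which limits every value. Of 2825 gene-level values under the alternatives, 2725 were counted as unchanged. This meant the same side of the threshold, and sign was not compared where neither setting passed or in F tests. Levels with 1 p53KO culture left out had no test and were held to the spread between KO-1 and KO-2. Another 53 passed the threshold newly, 44 no longer passed, 2 reversed and 1, the Timp1 level without KO-1, moved. Both reversals were the Mmp9 level in p53KO against WT, at 0.02 with 0 h libraries alone and 0.05 with libraries as samples. Without a filter on low counts, members called numbered 1, 5 and 2 for IL-1b at 0.5 h, IL-1b at 1 h and LPS at 1 h, and 1 for LPS at 0.5 h. The same setting gave 3, 6 and 2 for LPS against TNF, LPS against IL-1b and IL-1b against TNF, and 2, 2 and 4 for p53KO against WT after IL-1b, TNF and LPS. With the length trend removed, 0 members were called at 1 h after any stimulus, and 1 (Timp1) differed between genotypes after IL-1b. With 0 h libraries pooled over the series, 1 and 2 were called at 0.5 and 1 h after IL-1b. DESeq2 called 2 between LPS and IL-1b, and the 0 h libraries alone called 4 by genotype. With culture as the replicate block, members called numbered 3 for IL-1b at 1 h (Timp1, Mmp13 and Timp3), 3, 3 and 1 for the stimulus pairs LPS with TNF, LPS with IL-1b and IL-1b with TNF, and 1 and 4 between genotypes after IL-1b and LPS. With longest transcripts, levels were 96.9 CPM per kb for Mmp2, 3.45 for Mmp9, 289 for Mmp14 and 139 for Timp3. Leaving out 1 p53KO library at a time gave 0 to 1 members called at 1 h after each stimulus. For IL-1b, TNF and LPS it gave 6 to 7, 5 to 7 and 7 to 8 at 3 h. At 8 h it gave 5 to 6, 5 and 5 to 6, and from 3 to 8 h 3 to 6, 4 to 6 and 5 to 6. It gave 0 to 1 between LPS and IL-1b, 1 between LPS and TNF, and 1 to 2 between genotypes after LPS. Leaving out a p53KO library leaves 1 in its group, so a lost call need not mean a changed estimate. No WT library was left out, so the dependence of the genotype calls on single WT libraries was not tested. The causes were not tested.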
